A study of Arabidopsis thaliana with 8 samples.

Results

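The genes described here are 58 nuclear loci of Arabidopsis thaliana that code for proteins of the cytosolic ribosome, 23 of the small (40S) subunit and 35 of the large (60S) subunit. They were taken by locus from a list of ribosomal protein genes, out of 27415 loci counted in the deposited tables. The 58 loci belong to 35 protein families, and the assignment to families and subunits comes from general knowledge of ribosomal proteins. Other genes of the same families exist and were not analysed here, so a family below means its listed genes. Where the reference table gives no symbol, a gene is called by its locus.

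Ribosome profiling sequences the short mRNA stretches that ribosomes protect from nuclease, here RNase I, so that footprints count ribosomes on a coding sequence. Matched mRNA sequencing counts the transcripts themselves, and the ratio of the footprint level to the mRNA level is called translational efficiency. The 8 libraries formed 4 groups of 2 replicates: footprints in blue light, footprints in darkness, mRNA in blue light and mRNA in darkness. The labels give no genotype, ecotype, tissue, age or length of light exposure, and do not say whether replicates came from separate plants, so the p-values measure only the spread between these libraries, which may be technical.

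Footprint libraries held 2888624 to 4919808 counts and mRNA libraries 688630 to 847469. Chloroplast and mitochondrial genes took 0.82% to 1.06% of the footprint counts and 48.5% to 51.8% of the mRNA counts. The 58 genes together had 30869 to 50003 counts in a footprint library but only 665 to 977 in an mRNA library. The Spearman correlation of replicate counts over the 58 genes was 0.989 in blue light and 0.983 in darkness for footprints, and 0.790 in blue light and 0.883 in darkness for mRNA. Changes in mRNA of these genes are therefore measured far less precisely than changes in footprints: the standard error (SE) of the tested log2 fold changes had a median of 0.084 for footprints and 0.48 for mRNA.

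The cytosolic ribosome is built from ribosomal RNA and about equal molar amounts of each ribosomal protein. The small subunit holds the mRNA and its decoding site, and the large subunit holds the peptidyl transferase centre and the stalk on which elongation factors act. In Arabidopsis nearly every ribosomal protein is coded by several near-identical paralogs, and translation of ribosomal protein mRNAs is known to respond to light and to the TOR kinase pathway, in which S6 kinase phosphorylates the small subunit protein S6.

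Ribosomal protein genes were among the most densely translated genes in both light conditions. Levels were compared per codon, as CPM, counts scaled to TMM-adjusted library size, divided by the number of codons of the gene model, averaged over the 4 libraries of an assay. Among 21711 nuclear loci with footprints, 51 of the 58 genes stood above the 90th percentile of footprint density, and their median percentile was 96.8. Ranked within each light condition, 51 of the 58 stood above the 90th percentile in the blue light libraries, with a median percentile of 96.9, and 51 in the dark libraries, with a median of 96.6. Their mRNA level ranked lower, with a median percentile of 83.5 and 22 of 58 genes above the 90th percentile. The small subunit genes had a median footprint density of 0.85 CPM per codon and the large subunit genes one of 0.94 CPM per codon.

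The highest footprint density was that of emb2386, which codes for the large subunit protein L19, at 2.20 CPM per codon. It was followed by AT5G15200, an S9 gene, at 1.97, by RPS5A at 1.66, by the S8 gene AT5G20290 at 1.58 and by P40, which codes for the small subunit protein Sa, at 1.58 CPM per codon. The lowest density was that of AT2G40010, a gene of the stalk protein P0, with 0.0031 CPM per codon and the 17.6th percentile. RPSAb, the second Sa gene, had 0.016 CPM per codon, RPL3B had 0.041, the second S9 gene AT5G39850 had 0.055 and RPL10B had 0.070 CPM per codon. Each of these 5 sparsely translated genes has a listed paralog with dense footprints.

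Rank in mRNA and rank in footprints parted for several genes. PFL, a gene of the small subunit protein S18 whose mutants have pointed first leaves, had 0 counts in the 4 mRNA libraries, which allows up to 1.89 CPM of nuclear mRNA counts (a limit of 3 counts over the 4 libraries, covering counting error only). Its footprint level was 98.0 and 102 CPM in blue light, against 82.1 and 84.1 CPM in darkness. EMB1080, an S11 gene, had 1 mRNA count in all and 176 and 182 footprint CPM in blue light, against 164 and 159 CPM in darkness. RPL10B and AT5G39850 lay on the other side, with mRNA density at the 95.2nd and 91.5th percentiles and footprint density at the 71.6th and 66.4th. The rule the authors used for reads that match several paralogs is not given in the sources used here, and its part in such values was not tested.

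**Figure D1:**
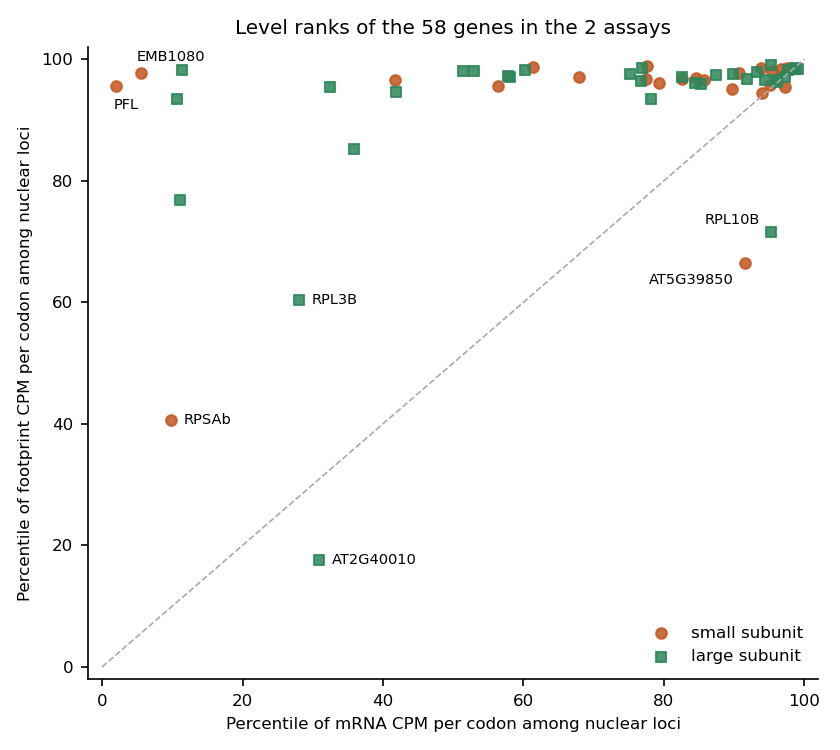
Percentile of each of the 58 genes among 21711 nuclear loci with footprints, for mRNA CPM per codon (x axis, percent) and footprint CPM per codon (y axis, percent), each over 4 libraries, with small subunit genes as circles and large subunit genes as squares. Most genes lie near the top whatever their mRNA rank, and 9 lie below the dashed line of equal ranks, among them RPL10B, AT5G39850 and AT2G40010.

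The first comparison asks how ribosome occupancy of these genes differed between blue light and darkness. With TMM scaling, footprints of 23 of the 57 genes that could be tested rose in blue light and 0 fell (edgeR quasi-likelihood test, Benjamini-Hochberg adjusted p under 0.05 over 15788 genes). That is 40.4% of the genes tested, where 37.8% of all genes changed, 20.9% rising and 16.9% falling. The median SE was 0.084 for the ribosomal protein genes and 0.19 for all genes tested. Smaller changes could thus pass in them than in most genes, and the shares are not at equal precision. The median log2 fold change was 0.17 for the ribosomal protein genes and -0.02 for all genes tested. DESeq2's Wald test called 9 rises, where 13.2% of all genes rose by it, and limma-voom called 21, where 20.7% of all genes rose, and both called 0 falls. The gene left untested was AT2G40010, which had too few footprints.

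The direction depended on the scaling. Scaled by library totals alone, an alternative chosen after seeing the data, 5 of the 57 genes rose and 12 fell, where 14.3% of all genes rose and 31.7% fell. The median log2 fold change was then -0.06, while that of all genes was -0.24. With upper-quartile scaling, likewise added, 9 rose and 1 fell, where 16.9% of all genes rose and 24.1% fell, with a median of 0.05 against -0.14 for all genes. The median of the ribosomal protein genes was higher than that of all genes by 0.18 on the log2 scale, a difference that a common scaling of the libraries leaves almost untouched by construction. The share of the 58 genes in nuclear footprint counts, which is close to a scaling by library totals, was 1.026% and 1.058% in blue light and 1.079% and 1.060% in darkness, so that both blue light libraries lay just below both dark ones. Their share of nuclear mRNA counts was 0.177% and 0.203% in blue light and 0.152% and 0.235% in darkness. The mRNA shares overlapped. In such bulk samples, a change in the cells present and a change in RNA per cell cannot be told apart.

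Small subunit genes carried most of the rises. With TMM scaling, 16 of 23 small subunit genes rose, a share of 69.6%, and 7 of 34 large subunit genes rose, a share of 20.6% that is near the 20.9% of all genes. The median SE was 0.082 for small and 0.084 for large subunit genes, against 0.19 for all genes, whose share is thus at lower precision. The median log2 fold change was 0.27 for small and 0.13 for large subunit genes. The difference of these medians was 0.14, which a common scaling cannot change by construction, and it lay between 0.14 and 0.16 when 1 footprint library was left out. Under library totals 3 small and 2 large subunit genes rose while 2 small and 10 large ones fell, where 14.3% of all genes rose and 31.7% fell. The counts also depended on single libraries. Fewer small subunit genes were called whichever footprint library was left out, and fewer of all genes rose in those fits too. The lowest small subunit count came without dark replicate 2 and the lowest large subunit count without blue replicate 2.

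The summed level of the subunits moved in the same sense. The mean footprint count per codon of large subunit genes over that of small subunit genes was 0.929 and 0.957 in the blue light libraries, against 1.05 and 1.06 in the dark libraries. Every blue light ratio was below every dark ratio. In mRNA the ratio was 1.27 and 1.36 in blue light, against 1.51 and 1.43 in darkness, again without overlap. With 2 libraries a group, the smallest two-sided p that an exact permutation test can give is 0.333, so this ratio was not tested. Taken over medians of the genes in place of means, the footprint ratio was 1.03 and 1.10 in blue light, against 1.11 and 1.17 in darkness, a narrow gap, and the mRNA ratio was 1.04 and 1.04 in blue light, against 0.970 and 1.24 in darkness, so that the mRNA groups overlapped.

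**Figure D2:**
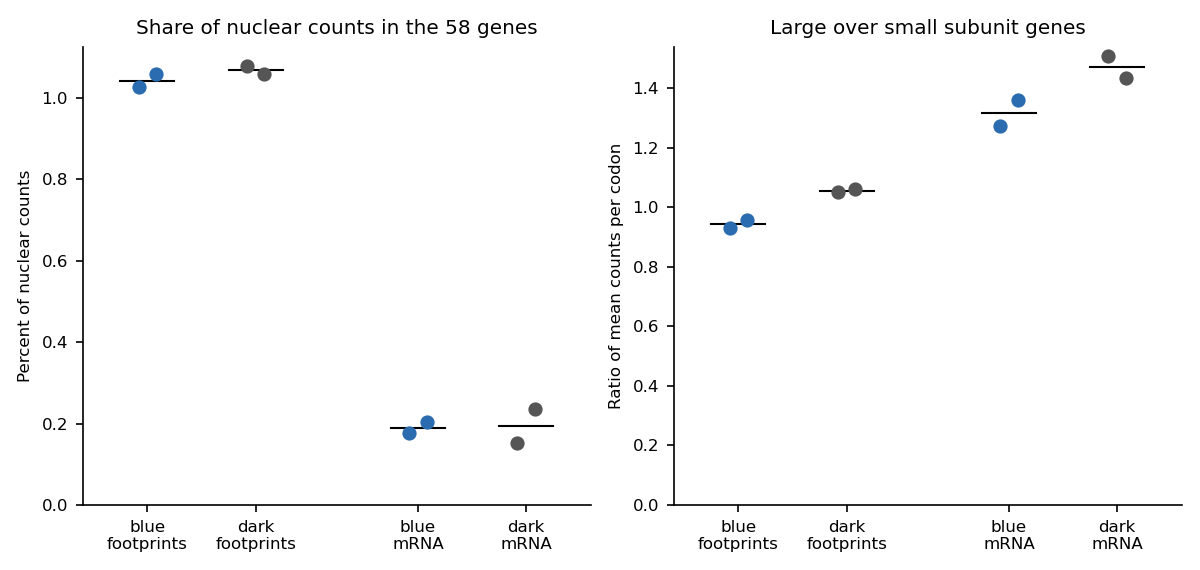
Left, percent of nuclear counts in the 58 genes in each library, and right, ratio of the mean counts per codon of large to small subunit genes, with blue points for blue light, grey points for darkness and a line at the mean of 2 libraries. The footprint ratio is 0.929 and 0.957 in blue light and 1.05 and 1.06 in darkness.

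Summing the listed genes of each family removes the dependence on how reads were split among them, as long as each read was counted once. The rule for such reads is not given. In 15 of the 35 families only 1 gene is listed, so that their sum repeats the result of that gene. With TMM scaling, 18 of 35 families rose, 12 of 16 small subunit and 6 of 19 large subunit families, and 0 fell, against 21.0% of all genes in that table that rose. Under library totals 3 families rose and 8 fell, where 14.3% of all genes in that table rose and 31.7% fell. DESeq2's Wald test called 7 rises, where 13.2% of all genes rose. Fewer families were also called whichever footprint library was left out, the fewest without blue replicate 2, and fewer of all genes rose in those fits too. The large subunit families that rose were L3, P0, L15, L8, L5 and L4. Small subunit families that did not pass the test were S6, S8, S11 and S21. Of the families that rose, S3, S12, S13, S14, S15a, S16 and S18 have 1 listed gene.

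The largest change was that of RPS15A, which codes for the small subunit protein S15a (uS8), a protein of the 40S body that binds ribosomal RNA. Its footprints stood at 156 and 135 CPM in blue light, against 69.5 and 60.7 CPM in darkness. Both blue light libraries exceeded both dark libraries, and the log2 fold change was 1.17 ± 0.10 (SE; adjusted p = 1.25e-10, edgeR). Its mRNA counts were too few to be tested, at 4.35 and 12.1 CPM in blue light and 5.06 and 2.35 CPM in darkness. The next largest change that passed the test was 0.58 on the log2 scale.

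RPS10B, which codes for S10 in the 40S head, followed with 135 and 116 CPM in blue light, against 93.8 and 76.2 CPM in darkness. Its log2 fold change was 0.58 ± 0.10 (SE; adjusted p = 4.80e-05, edgeR). The S12 gene AT1G15930 had 111 and 123 CPM in blue light, against 75.0 and 86.5 CPM in darkness, a log2 fold change of 0.52 ± 0.10 (SE). In both genes the groups did not overlap.

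The 2 largest rises among large subunit genes were in genes of the stalk base and of the catalytic centre. AT3G09200, the main gene of P0, which anchors the stalk proteins P1 and P2, had 389 and 377 CPM in blue light, against 297 and 270 CPM in darkness (log2 fold change 0.44 ± 0.07, SE). RP1, which codes for L3, a protein that reaches towards the peptidyl transferase centre, had 627 and 654 CPM in blue light, against 507 and 458 CPM in darkness (0.41 ± 0.07). AT4G36130, an L8 gene, had 108 and 128 CPM in blue light, against 90.5 and 91.2 CPM in darkness (0.37 ± 0.10). In all of these genes the blue light libraries were the higher ones.

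The other genes among the 10 largest rises were of the small subunit. Both genes of S5, a protein of the 40S head at the mRNA exit, rose: RPS5A had 387 and 359 CPM in blue light, against 290 and 283 CPM in darkness, and RPS5B had 139 and 139 CPM in blue light, against 117 and 111 CPM in darkness. EMB3010, the gene of the S6 copy RPS6B, had 235 and 265 CPM in blue light, against 197 and 188 CPM in darkness, and its log2 fold change was 0.38 ± 0.08 (SE). The S4 gene AT2G17360 had 197 and 188 CPM in blue light, against 153 and 147 CPM in darkness (0.36 ± 0.08). All these groups were without overlap.

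In all 15 settings of the footprint test, library totals included, 5 genes rose: RPS15A, RPS10B, AT1G15930, AT3G09200 and RP1. Under library totals their log2 fold changes were 0.95, 0.35, 0.30, 0.21 and 0.18. The remaining 13 rises ranged from 0.19 to 0.28 on the log2 scale with TMM scaling, and 6 of them were below 0 under library totals. Both blue light libraries lay above both dark libraries in 39 of the 57 genes, 19 small and 20 large subunit genes, and below them in 2. Of all genes, whose median SE was larger, 33.6% lay above and 33.9% below. The 2 genes below were AT5G39850 and AT3G11250, whose log2 fold changes of -0.29 ± 0.24 and -0.19 ± 0.12 (SE) did not pass the test.

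**Figure D3:**
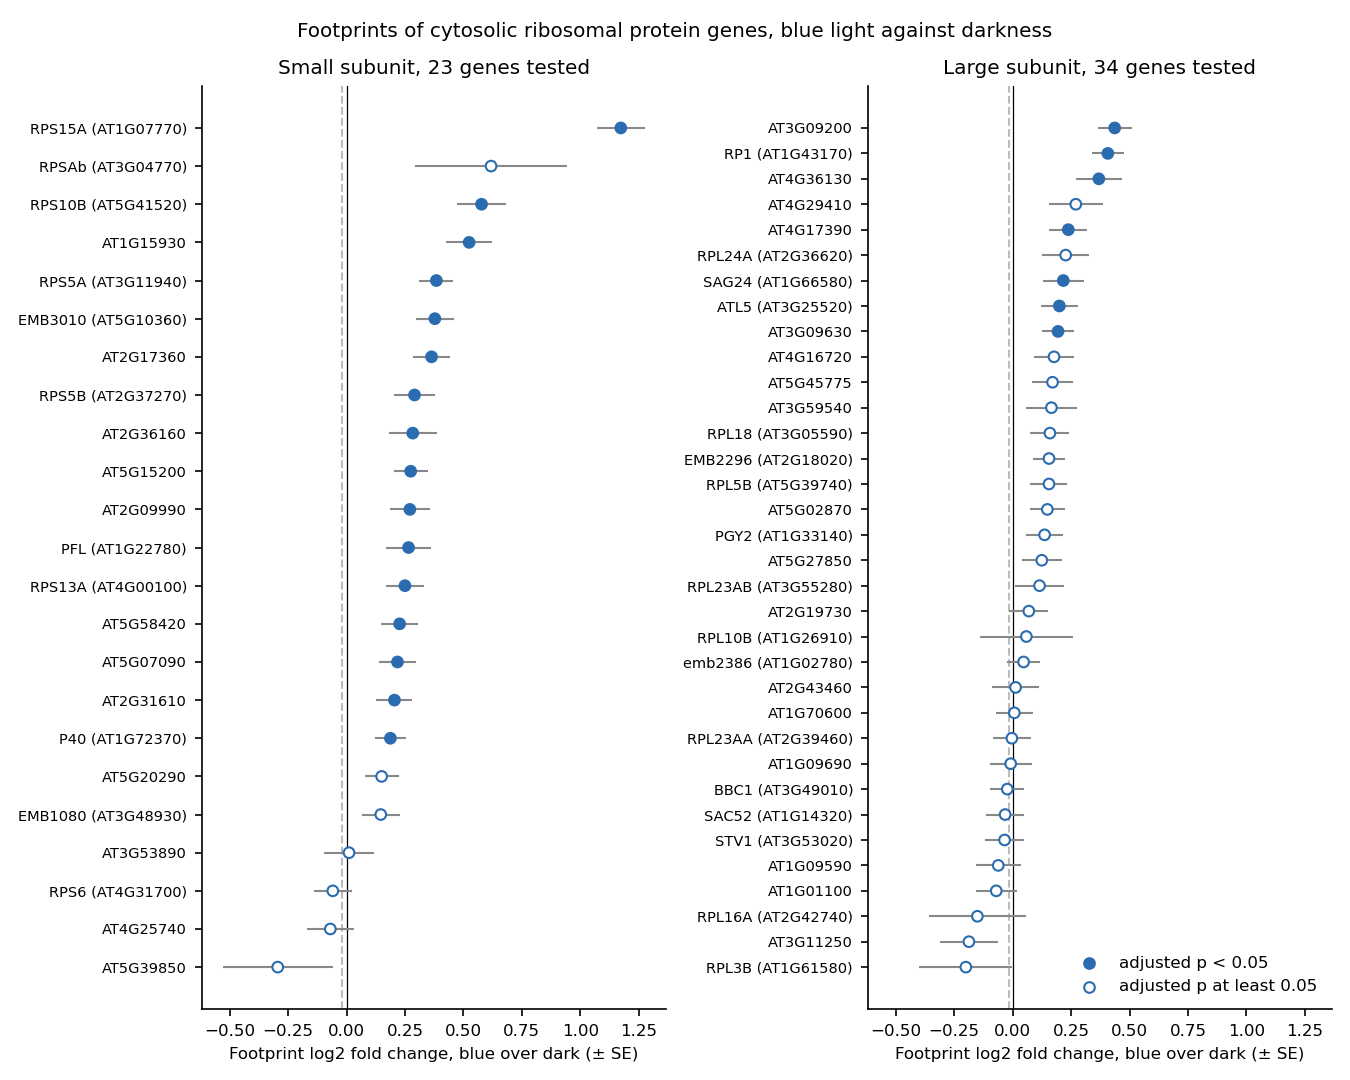
Log2 fold change of footprints in blue light over darkness with TMM scaling (x axis, bars show the SE) for the 23 small subunit and 34 large subunit genes tested, with filled points for adjusted p under 0.05. The dashed line marks the median of all genes, -0.02, and 16 small and 7 large subunit genes are filled; under library totals every point would lie about 0.23 further left.

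Densely translated genes did not all move. emb2386 had 437 and 481 CPM in blue light, against 442 and 446 CPM in darkness, so that the groups overlapped (log2 fold change 0.05 ± 0.07, SE). SAC52, the L10 gene whose mutant restores stem growth in the acaulis5 dwarf, had 295 and 357 CPM in blue light, against 332 and 332 CPM in darkness (-0.03 ± 0.08). AT5G20290 had 339 and 371 CPM in blue light, against 318 and 322 CPM in darkness, and its log2 fold change of 0.15 ± 0.07 did not pass the test (adjusted p = 0.105, edgeR). Among the sparsely translated genes, RPSAb had 6.83 and 5.83 CPM in blue light, against 4.53 and 3.81 CPM in darkness, RPL3B had 13.2 and 16.3 CPM against 15.5 and 17.9 CPM in darkness, and RPL10B had 15.0 and 15.1 CPM against 14.2 and 14.7 CPM in darkness. None of these 3 passed the test.

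The second comparison concerned mRNA of the same genes. Only 23 of the 58 genes, 8 small and 15 large subunit genes, had enough mRNA counts to be tested, and 0 of them rose or fell, by edgeR, by limma-voom and by DESeq2's Wald test. Of all 7822 genes tested, 3.90% changed, 2.85% rising and 1.05% falling. An unadjusted p under 0.05 was found in 5 of the 23 genes, and in 1050 of all 7822 genes. The median log2 fold change was 0.03, the same as for all genes. Both blue light libraries lay above both dark libraries in 5 of the 23 genes and below them in 7, where 22.5% of all genes lay above and 19.9% below.

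The widest mRNA differences were in STV1, which codes for L24 and is known for translation reinitiation after upstream open reading frames, and in the S16 gene AT2G09990. STV1 had 1.45 and 8.65 mRNA CPM in blue light, against 20.3 and 24.7 CPM in darkness, which rests on 1 and 5 counts in blue light and 16 and 21 counts in darkness (log2 fold change -2.19 ± 0.74, SE; adjusted p = 0.113, edgeR). AT2G09990 had 29.0 and 34.6 CPM in blue light, against 10.1 and 11.7 CPM in darkness (1.52 ± 0.51; adjusted p = 0.110, edgeR). P40 had 76.8 and 81.3 CPM in blue light, against 29.1 and 49.3 CPM in darkness (1.0 ± 0.35; adjusted p = 0.133, edgeR). SAG24, an L10 gene first described as induced in senescence, had 18.8 and 17.3 CPM in blue light, against 31.6 and 50.5 CPM in darkness (-1.18 ± 0.45; adjusted p = 0.189, edgeR). RPL10B, another L10 gene, had 15.9 and 15.6 CPM in blue light, against 29.1 and 39.9 CPM in darkness (-1.13 ± 0.47, adjusted p = 0.259, edgeR). In each of these genes the groups did not overlap, yet none passed the test. Of the 23 genes tested, 3 reached the filter's minimum in the libraries of 1 light condition only, STV1 and RPL5B in darkness and AT2G09990 in blue light, so that part of their difference is fixed by the filter. STV1 fell without blue replicate 2 (adjusted p = 0.0278, edgeR), which leaves 1 blue light library with 1 count. P40 rose without dark replicate 2 (adjusted p = 0.0475, edgeR). In both of these fits the single library left is assumed to vary like the 2 libraries of the other group.

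The third comparison set the light effect in footprints against that in mRNA. Translational efficiency was tested as an assay-by-light interaction in 1 fit of the 8 libraries, for the 23 genes with enough counts in both assays. By this test 2 genes rose in efficiency, STV1 and SAG24, and 1 fell, P40, which is 8.70% and 4.35% of the 23, where 10.1% of all 6169 genes changed, 5.20% rising and 4.93% falling. STV1 entered this test only through its dark mRNA libraries, the higher ones, so its mRNA difference and the efficiency rise are in part fixed by the filter, though it also passed with no filter on low counts (adjusted p = 0.0412, edgeR). The other 20 did not pass the test. An unadjusted p under 0.05 was found in 6 of the 23 genes, and in 1504 of all 6169 genes.

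STV1 footprints overlapped between the groups, with 173 and 192 CPM in blue light, against 180 and 193 CPM in darkness, while its mRNA was lower in both blue light libraries. The log2 change of its efficiency was 2.07 ± 0.64 (SE; adjusted p = 0.0369, edgeR), but leaving out the first blue light mRNA library gave 1.22 and leaving out the second gave 3.81. SAG24 had 163 and 180 footprint CPM in blue light, against 138 and 156 CPM in darkness, and its efficiency rose by 1.27 ± 0.40 on the log2 scale (adjusted p = 0.0410, edgeR). P40 footprints were 487 and 483 CPM in blue light, against 428 and 424 CPM in darkness, a smaller difference than in its mRNA, and its efficiency fell by 0.94 ± 0.29 on the log2 scale (adjusted p = 0.0378, edgeR). For P40 that change was -0.59 with dark mRNA replicate 1 left out and -1.39 with replicate 2 left out. AT2G09990 came next at -1.38 ± 0.46 (adjusted p = 0.0541, edgeR). The fit shares 1 spread between the assays, with a common dispersion of 0.0044, where the assays fitted alone gave 0.052 for mRNA and 0.0023 for footprints. With a variance for each assay (limma-voom), an alternative chosen after seeing the data, 0 genes passed, and 0 passed when any 1 footprint library or blue mRNA replicate 1 was left out.

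Whatever the light, most of these genes had many footprints for their mRNA. The log2 ratio of footprint CPM to mRNA CPM, with 0.5 CPM added to each group mean, had a median of 2.66 in blue light and 2.61 in darkness over the 23 genes. Over all 6169 genes the medians were 0.68 in blue light and 0.48 in darkness. In each condition 21 of the 23 genes lay above the median of all genes, and the 35 genes with too few mRNA counts are not part of this count. RPL10B and AT5G39850 were the exceptions, at -0.06 and -0.49 in blue light and at -1.23 and -0.43 in darkness. In blue light the highest ratios were 5.04 for STV1, which had 3.02 in darkness, and 4.33 for emb2386, which had 4.04 in darkness. Among small subunit genes AT5G20290 was highest in blue light, at 4.04, and AT2G09990 in darkness, at 4.01. The blue light ratio of STV1 rests on 1 and 5 mRNA counts. STV1 reached the filter's mRNA minimum in darkness only and AT2G09990 in blue light only. Their ratios in the other condition, which rank highest here, are therefore in part fixed by the filter.

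In a minority of pairs, paralogs of 1 family differed in their footprint response. Of 18 pairs in which both genes had a mean of at least 100 footprint counts, the difference of their log2 fold changes exceeded 2 times the combined SE in 5, and the median difference was 0.14. A common scaling of the libraries cancels in these differences, which are given as a description, with no test. How often pairs of other genes differ as much was not tested.

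The widest gap was in the S10 family, where RPS10B rose and AT4G25740 had 84.1 and 77.8 CPM in blue light, against 86.3 and 84.1 CPM in darkness. The difference of their log2 fold changes was 0.65 ± 0.14 (combined SE). RPS10B took 61.7% and 59.9% of the family's footprints in blue light, against 52.1% and 47.5% in darkness. In the P0 family AT3G09200 took 88.6% and 88.7% in blue light, against 83.3% and 84.2% in darkness, and the share of AT3G11250 was 11.1% and 10.9% in blue light, against 16.6% and 15.6% in darkness. The difference of their fold changes was 0.62 ± 0.14.

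S6 is the target of S6 kinase, and its 2 genes exchanged rank. EMB3010 took 55.1% and 55.1% of the family's footprints in blue light, against 47.3% and 47.8% in darkness, and RPS6 had 192 and 216 CPM in blue light, against 219 and 205 CPM in darkness. Their fold changes differed by 0.44 ± 0.11 (combined SE), while the family sum did not pass the test (log2 fold change 0.17 ± 0.07). In L24, RPL24A, with 88.5 and 86.2 CPM in blue light, against 76.0 and 73.6 CPM in darkness, and STV1 differed by 0.26 ± 0.13, and by 0.16 without blue footprint replicate 1. SAG24 and SAC52 of the L10 family differed by 0.25 ± 0.12, and by 0.17 without dark footprint replicate 1. The gap between AT4G36130 and EMB2296 of the L8 family, 0.21 ± 0.12, was within 2 times its SE, and was 0.058 without blue footprint replicate 2 and 0.38 without blue footprint replicate 1. EMB2296 had 395 and 374 CPM in blue light, against 344 and 347 CPM in darkness.

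**Figure D4:**
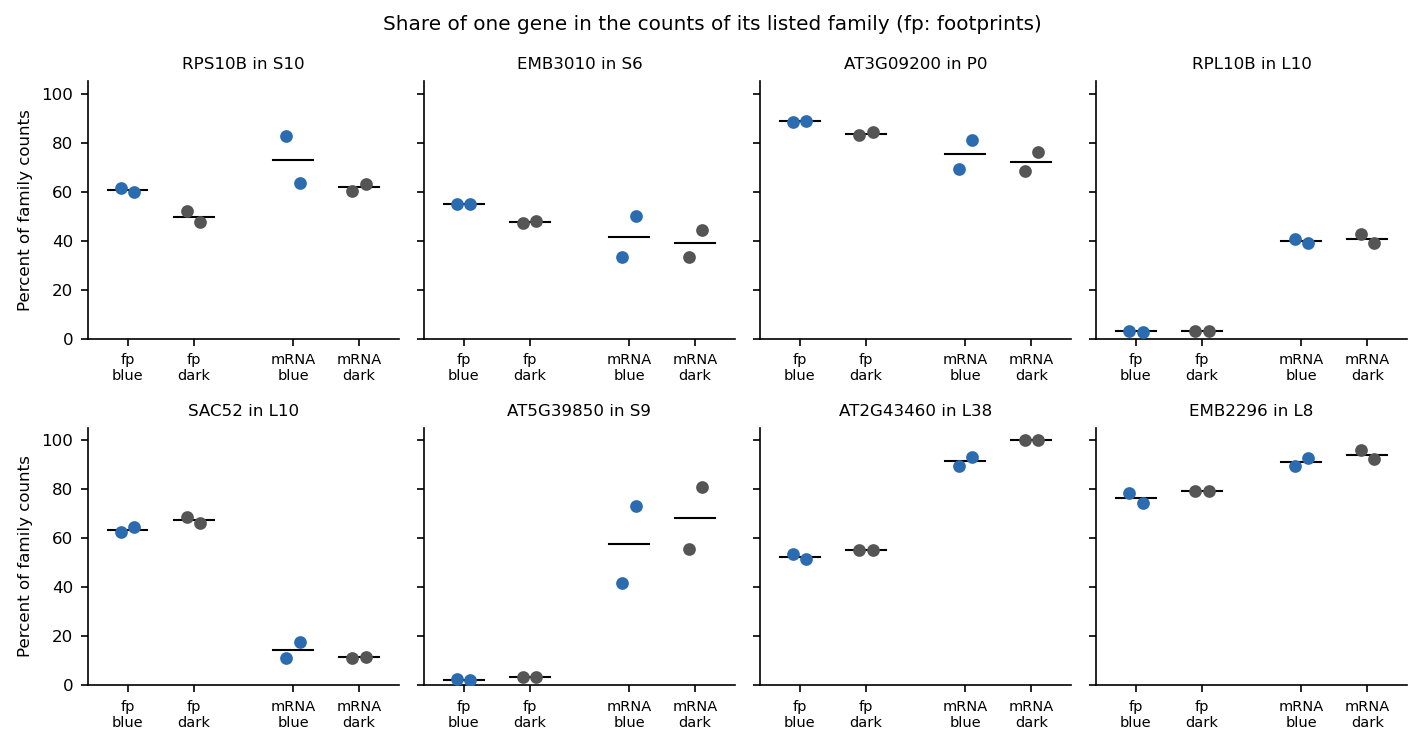
Share of 1 gene in the counts of its listed family (y axis, percent) in each library, for footprints (fp) and mRNA in blue light (blue points) and darkness (grey points), with a line at the mean of 2 libraries. RPS10B, EMB3010 and AT3G09200 hold more of their family's footprints in blue light, and RPL10B, SAC52, AT5G39850, AT2G43460 and EMB2296 hold different shares of mRNA and footprints in both conditions.

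The mix of paralogs also differed between mRNA and footprints, in blue light as in darkness. In 9 of 18 families with at least 20 mRNA counts over all libraries, at least 1 gene had an mRNA share beyond its footprint share in every library. In the L10 family RPL10B held 40.7% and 39.1% of the mRNA counts in blue light and 42.6% and 39.1% in darkness, but 3.17% and 2.75% of the footprints in blue light and 2.94% and 2.92% in darkness. SAC52 held 12.0% of the pooled mRNA counts (23 of 191, exact 95% interval 7.79% to 17.5%) and 65.1% of the pooled footprints. The proteins of this family sit at the tRNA channel and are among the last to join the large subunit.

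In the S9 family AT5G39850 held 67.7% of the pooled mRNA counts (42 of 62, exact 95% interval 54.7% to 79.1%) and 2.66% of the footprints. AT2G43460, an L38 gene, held 94.6% of the mRNA (53 of 56, 85.1% to 98.9%) and 53.7% of the footprints. EMB2296 held 92.5% of the L8 mRNA (335 of 362, 89.3% to 95.0%) and 77.8% of the footprints. The intervals are Clopper-Pearson and cover counting error only, and how reads shared by paralogs were counted is not given. The L15, L21, L5, P0 and S4 families also held such a gene. In L21, AT1G09590 held 52.3% of the mRNA (23 of 44, 36.7% to 67.5%) and 44.1% of the footprints. Its interval thus includes its footprint share. How often counting error alone gives such a gene was not tested. Outside these families, the near-identical elongation factor genes AT1G07920 and AT1G07930 had nearly equal counts in every library, the lower at 0.867 to 0.941 of the higher.

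Genes that work with the ribosome were followed in 4 further lists. Footprints of elongation factors and ribosome-associated proteins rose in 15 of 20 genes and fell in 0, where 20.9% of all genes rose, with a median log2 fold change of 0.58. Under library totals 12 rose and 4 fell, where 14.3% of all genes rose and 31.7% fell. The largest rises were in S6K1, an S6 kinase, with 73.8 and 64.7 CPM in blue light, against 9.05 and 6.16 CPM in darkness, in TCTP1, a growth regulator in the TOR pathway, with 1405 and 1365 CPM in blue light, against 285 and 266 CPM in darkness, and in the poly(A)-binding protein gene PAB2, with 674 and 678 CPM in blue light, against 152 and 159 CPM in darkness. TCTP1 had only 1.45 and 0 mRNA CPM in blue light, against 0 and 1.17 CPM in darkness, so its footprint rise could not be set against its mRNA. The 4 genes of elongation factor EF1A were between -0.05 and 0.01 and did not pass the test.

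Factors that assemble ribosomes formed another list. Of its 18 genes, 3 rose and 0 fell with TMM scaling, a share of 16.7% that is below the 20.9% of all genes. Under library totals 0 rose and 3 fell, where 14.3% of all genes rose and 31.7% fell. DESeq2's Wald test called 1 rise, where 13.2% of all genes rose by it, and fewer rises were also called without dark footprint replicate 2. The rises were in TOZ (0.59 ± 0.21, SE), in RRP5 (0.56 ± 0.15), both nucleolar processing factors, and in NUC1, the main nucleolin, with 149 and 157 CPM in blue light, against 116 and 116 CPM in darkness (0.40 ± 0.09). In mRNA 0 of 4 biogenesis factors tested changed. An unadjusted p under 0.05 was found in 1 of these 4, and in 1050 of all 7822 genes. Of 13 elongation factor and ribosome-associated genes tested in mRNA, 2 rose, where 2.85% of all genes rose. They were EF1B-beta (AT1G30230, log2 fold change 2.46 ± 0.29) and EF1B-gamma (AT1G57720, 1.28 ± 0.37).

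**Figure D5:**
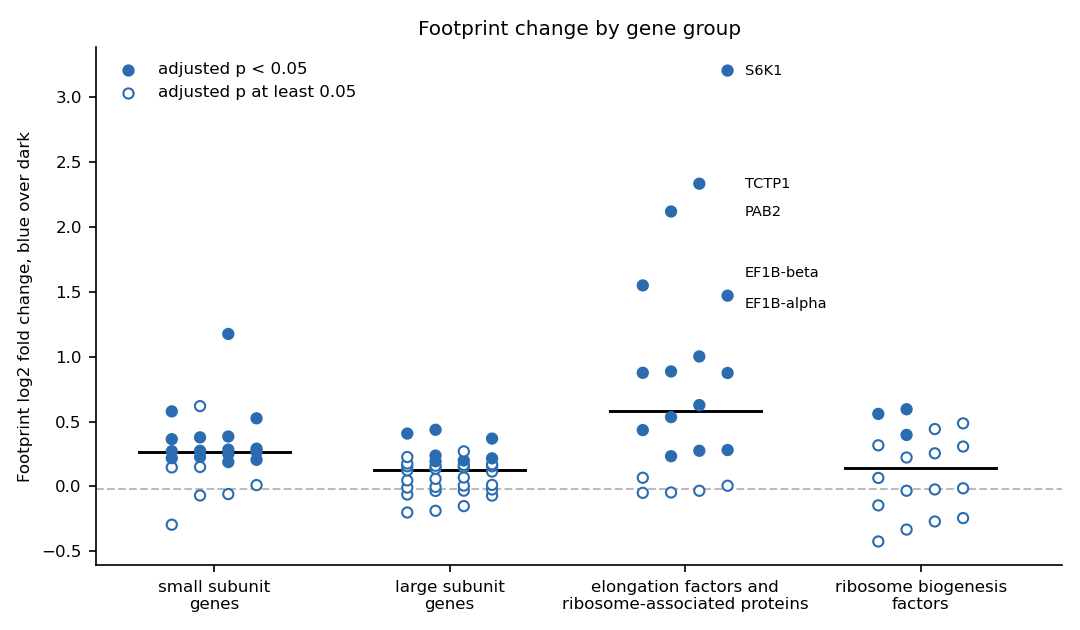
Log2 fold change of footprints in blue light over darkness with TMM scaling (y axis) for each tested gene of 4 groups, with filled points for adjusted p under 0.05, black lines at the group medians (0.27, 0.13, 0.58 and 0.14) and the dashed line at the median of all genes. The median of small subunit genes is above that of large subunit genes while their ranges overlap, and S6K1, TCTP1 and PAB2 stand highest; under library totals every point would lie about 0.23 lower.

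Markers of proliferating cells, where ribosomal protein genes are known to be active, and markers of root cells gave these values. The 12 markers of proliferating cells summed to 173 and 153 footprint CPM in blue light, against 162 and 177 CPM in darkness, with none at 0. Of 11 tested, 0 rose and 2 fell, KNOLLE (-0.60 ± 0.18, SE) and CDKB2;1 (-0.44 ± 0.17), a share of 18.2% near the 16.9% of all genes that fell. Neither passed by DESeq2's Wald test, or without blue or dark footprint replicate 2. The 8 root cell markers summed to 499 and 451 CPM in blue light, against 638 and 660 CPM in darkness, with none at 0. Of 7 tested, 4 fell, led by EXPA7 (-1.15 ± 0.25), PRP3 (-0.80 ± 0.10) and PHT1;1 (-0.75 ± 0.13), and 1 rose, SCR (0.74 ± 0.13), where 16.9% of all genes fell and 20.9% rose. The part of these cells in the ribosomal protein values was not tested.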

How the data were processed

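Footprint and mRNA libraries of Arabidopsis thaliana were compared between blue light and darkness, with 2 replicates each. The authors deposited 1 table of raw read counts per gene model and library. Per the submitters' processing notes, CASAVA 1.8, Bowtie2 2.1.0 and TopHat2 2.0.9 were used with build TAIR10; the counting program, annotation and rule for reads matching several genes are not given in the sources used here. Per the labels' protocols, footprints were made with RNase I, ribosome pelleting, linker ligation and rRNA depletion, and mRNA libraries with TruSeq. RNA that rRNA depletion or pelleting treats differently can shift the ratio of the assays.

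For each locus the model with the largest length value was used. Counts were filtered (filterByExpr, minimum count 10) and tested with edgeR 4.0.16 in R 4.3.3 (TMM, quasi-likelihood, Benjamini-Hochberg over all genes, adjusted p under 0.05), for each assay alone and as an assay-by-light interaction. A fold change's SE is its size over the root of F. Symbols came from RefSeq's TAIR10.1 table, and subunits and families from general knowledge. Alternatives used DESeq2 1.42.0, limma 3.58.1, other filters, scalings and models, a replicate block, and leaving out each library. Scripts were tested on simulated data.

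The members and gene lists were chosen with earlier results of these data known. Named are genes called in mRNA or efficiency, the 10 largest called footprint changes in each direction, the 5 highest and 5 lowest footprint densities, the 6 paralog pairs that differed most, and up to 3 called genes per list and direction; other genes were named after their values were seen.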

Additional observations from a re-analysis of the deposited data

Results flagged for a closer look

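In 3 of the 23 genes tested, the light effect in footprints differed from that in mRNA by the interaction test, where 10.1% of all 6169 genes differed. That fit shares 1 spread between the assays, and none of the 3 passed with a variance for each assay (limma-voom). STV1 (RPL24B) differed by 2.07 on the log2 scale, with footprints that overlapped between the light conditions and mRNA that was lower in both blue light libraries. Its mRNA counts were 1 and 5 in blue light, against 16 and 21 in darkness, so it reached the filter's minimum in the dark libraries only, and part of its difference is fixed by the filter. SAG24, an L10 gene, differed by 1.27, with footprints higher and mRNA lower in both blue light libraries. P40, the main Sa gene, differed by -0.94, with footprints and mRNA both higher in blue light and mRNA by more.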

How the results depend on the processing

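Member rises in footprints, 23 with TMM scaling, came to 9 with DESeq2's Wald test, 5 with library totals and 9 with upper-quartile scaling, and to between 11 and 18 without 1 library. Member falls, 0 with TMM scaling, came to 12 with library totals and 1 with upper-quartile scaling. Family rises, 18 with TMM scaling, came to 7 with DESeq2's Wald test, 3 with library totals and 5 with upper-quartile scaling, and 8 families fell with library totals. Family rises were also fewer whichever footprint library was left out. Between TMM and library totals the scaling itself moves every gene by about -0.23. The members' median log2 fold change was 0.17 both with TMM scaling in edgeR and with DESeq2's Wald test. Without 1 library it lay between 0.14 and 0.19. Of the ribosomal protein genes above 0 with TMM scaling, 24 were below 0 under library totals. Those of them that passed the test under 1 of these scalings were emb2386 (-0.18) and AT1G70600 (-0.22), both past the threshold under library totals, and SAG24 (-0.0106), P40 (-0.0390), AT2G31610 (-0.0216), AT3G09630 (-0.0329), ATL5 (-0.0272) and AT5G07090 (-0.00844). Library totals, upper-quartile scaling and the variance by assay were chosen after seeing the data.

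Efficiency rises, 2 in the fit as reported, were 1 with DESeq2 size factors in edgeR, 1 with limma-voom and 0 with limma-voom by assay, and between 0 and 2 without 1 library. Efficiency falls, 1 as reported, were 2 with DESeq2 size factors, 2 with DESeq2's Wald test, 2 with at least 10 CPM in 2 libraries, and 0 with no filter, nuclear loci only, library totals or limma-voom by assay, and between 0 and 1 without 1 library. In mRNA, rises and falls were each between 0 and 1 without 1 library. The cause was not tested, except that leaving out a library also leaves fewer samples.

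Counted over nuclear loci tested in both assays, only 23 of the 58 members enter. Their share was 0.716% in blue light and 0.765% in darkness for footprints, and 0.322% in blue light and 0.377% in darkness for mRNA. On that count the mRNA libraries did not overlap, at 0.306% and 0.339% in blue light, against 0.348% and 0.407% in darkness. STV1 and RPL5B entered it only through their dark mRNA libraries, and AT2G09990 only through its blue light ones. The gap is therefore in part fixed by the filter, and over all 58 genes the mRNA shares overlapped. As a ratio of medians, large over small was 1.06 in blue light and 1.14 in darkness for footprints, and 1.04 in blue light and 1.11 in darkness for mRNA. Whether libraries of equal replicate number were paired is not given in the sources used here. Deviations of same-numbered libraries correlated at 0.008 in footprints and 0.023 in mRNA, which cannot decide it with 2 libraries a group. With the replicate block, 22 members and 18 families rose in footprints, and in efficiency 2 rose and 0 fell. The mRNA depth left 35 of the 58 genes untested there.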
